A study of Arabidopsis thaliana with 6 samples.

Results

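The plastid ndh genes code for the plastid-made subunits of the NADH dehydrogenase-like (NDH) complex. The 10 genes described here are ndhA, ndhC, ndhD, ndhE, ndhF, ndhG, ndhH, ndhI, ndhJ and ndhK. They were chosen by name, as the probe sets that the array annotation assigns to a single one of these genes. Each gene had 1 probe set, and they are 10 of the 69 plastid protein-coding genes with such a probe set. An eleventh subunit gene, ndhB, lies in the inverted repeat; its probe set is assigned to 2 gene entries, and it was not analysed here.

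The study compared albino msh1 mutants of Arabidopsis thaliana with wild-type plants on Affymetrix arrays, 3 arrays of each. Both groups were the aerial part of plants 4 weeks old, grown on MS medium with 1.5% sucrose in 12 h of light at 24 °C. RNA was taken from each plant, and the replicates are labelled as biological. The labels give no msh1 allele, and every mutant array is from albino plants, so the mutant genotype and the albino state cannot be told apart. The transcript of MSH1, a nuclear gene for a MutS homologue that acts in plastids and mitochondria, was not analysed here.

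The NDH complex sits in the thylakoid membrane. It takes electrons from ferredoxin, passes them to plastoquinone and pumps protons, and it is known for cyclic electron flow around photosystem I and for chlororespiration. NdhH, NdhI, NdhJ and NdhK belong to its stromal arm, and NdhA, NdhC, NdhD, NdhE, NdhF and NdhG to its membrane arm. The plastid genes lie in 3 places outside the inverted repeat: a unit read from ndhC through ndhK to ndhJ, ndhF by itself, and a unit read from ndhH through ndhA, ndhI, ndhG, ndhE and psaC to ndhD.

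Values are RMA values on the log2 scale, so a difference of 1 is a 2-fold difference, and they are the authors' deposited values. Differences are albino minus wild type, and a gene is said to have risen or fallen where the adjusted p of limma, over 22746 probe sets, was under 0.05. A probe set's value depends on its probes, so levels are compared between arrays and not between genes. Arrays correlated at r = 0.989 to 0.995 within groups and at r = 0.969 to 0.985 between groups, across probe sets. Leaf markers of the labelled tissue were high: the mean of the 3 measured of 12 listed (RCA, LHCB4.1 and LHCB4.2) was 12.1 to 12.4 in albino arrays and averaged 12.98 in wild-type arrays, each of which lay above every albino array. The plastid genes rbcL and psbA, also leaf markers but outside that mean, averaged 8.43 and 9.07 in albino arrays. In wild-type arrays they averaged 10.81 and 12.07. The root hair gene EXPA7, the measured one of 5 root markers, averaged 4.18 in albino and 4.19 in wild-type arrays. RCA, LHCB4.1, LHCB4.2, rbcL and psbA all fell in albino plants, as did ndhJ and ndhK below. The part of these leaf markers in the ndh results was not tested. In whole shoots, fewer cells of a type and less RNA per cell cannot be told apart.

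Transcripts of ndhJ and ndhK were 3.89-fold and 3.62-fold lower in albino plants, and no other ndh transcript passed the test. Called lower were 2 of the 10 genes, against 7.44% of all probe sets. Called higher were 0 of the 10, against 3.75% of all probe sets. The 2 groups of arrays did not overlap in 2 of the 10 genes, both lower in albino plants, and in 0 higher, against 19.8% and 10.1% of all probe sets. At an unadjusted limma p under 0.05, 3 genes were lower, ndhA besides ndhJ and ndhK, against 3861 of the 22746 probe sets. The median difference of the 10 genes was -0.31, that of the other 59 plastid genes was -0.37, and that of all probe sets was -0.04.

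The unit of ndhC, ndhK and ndhJ held both genes that fell. ndhJ, for a subunit of the stromal arm, had values of 7.72, 7.75 and 7.24 in albino replicates 1 to 3, against 9.63, 9.64 and 9.32 in wild-type replicates 1 to 3. The highest albino array lay well below the lowest wild-type array. The difference was -1.96 ± 0.16 (SE, n = 3 arrays per group), which is 3.89-fold lower, with a limma adjusted p of 0.00150. ndhK, for a stromal-arm subunit that carries an iron-sulfur cluster, had values of 6.08, 6.38 and 6.24 in albino replicates, against 7.67, 8.39 and 8.20 in wild-type replicates. Again every albino array lay below every wild-type array. The difference was -1.85 ± 0.19, which is 3.62-fold lower, with a limma adjusted p of 0.00208. Both calls held in all 18 alternatives computed for them, with adjusted p-values of at most 0.0130 for ndhJ and 0.0147 for ndhK.

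ndhC, the leading gene of the same unit, codes for a small membrane subunit. Its values were 10.93, 11.09 and 10.65 in albino replicates, against 11.57, 11.15 and 11.03 in wild-type replicates. The groups overlapped, since albino replicate 2 lay above wild-type replicate 3. The difference was -0.35 ± 0.17 (95% interval -0.75 to 0.04), with a limma adjusted p of 0.247. This interval does not reach the fall of ndhJ (95% interval -2.34 to -1.58) or of ndhK (-2.29 to -1.42). Taken within each array, ndhJ minus ndhC was -3.41 to -3.21 in albino and -1.93 to -1.51 in wild-type arrays, a difference between groups of -1.61. For ndhK minus ndhC the group difference was -1.50, and for ndhJ minus ndhK it was -0.11. The values of ndhJ and ndhK thus shifted by nearly the same amount, and that of ndhC by less, within a single transcription unit. These pairs were set side by side with their values known and were not tested, and where in its gene each probe set lies was not looked up here. The ndhC probe set ranked between the 97.5th and the 98.5th percentile of its arrays, where saturation was not measured.

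**Figure D1:**
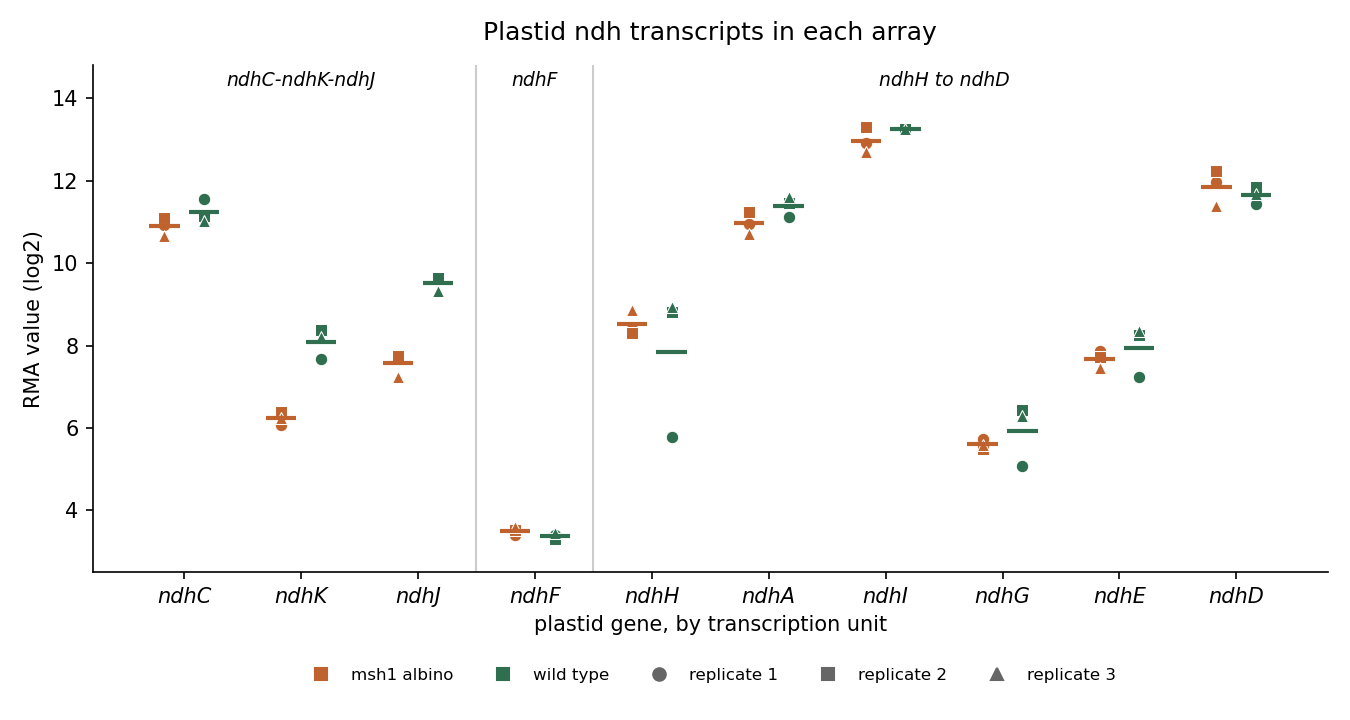
RMA values (log2, vertical axis) of the 10 ndh probe sets, grouped by transcription unit. Each point is an array, its shape gives the replicate, and bars are group means, with albino on the left of each pair and wild type on the right. The groups separate for ndhJ and ndhK, ndhF is near 3.4 in both groups, and wild-type replicate 1 is low in ndhH, ndhG and ndhE.

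ndhF codes for a proton-pumping subunit at the far end of the membrane arm. Its values were 3.39, 3.51 and 3.60 in albino replicates, against 3.39, 3.30 and 3.44 in wild-type replicates. They rank between the 3.00th and the 10.9th percentile of all probe sets of their arrays, near the low end of what the arrays report. The difference was 0.12 ± 0.10 (95% interval -0.10 to 0.35), with a limma adjusted p of 0.507. Background was not measured here, so whether this probe set read any ndhF transcript is not known, and the value says nothing of a change in it. In the gene table ndhF also overlaps the end of a copy of ycf1.

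In the unit from ndhH to ndhD none of the 6 genes passed the test, and 4 of them had a difference between -0.43 and -0.27. ndhA, for a membrane subunit next to the stromal arm and the only one of these genes with an intron, came nearest. It had values of 10.96, 11.24 and 10.70 in albino replicates, against 11.12, 11.46 and 11.62 in wild-type replicates. Albino replicate 2 lay above wild-type replicate 1, so the groups overlapped. The difference was -0.43 ± 0.17, with an adjusted p of 0.163 by limma. ndhI, for a stromal-arm subunit with iron-sulfur clusters, had 12.92, 13.30 and 12.69 in albino replicates, against 13.26, 13.27 and 13.27 in wild-type replicates. The wild-type arrays were close to identical, with albino replicate 2 just above them and the other two albino arrays below. The difference was -0.29 ± 0.15 (adjusted p = 0.287 by limma). It was called lower without albino replicate 2 (-0.46, adjusted p = 0.0449), the highest albino array. ndhI changed sign to 0.17 when quantile normalization was applied again. Its probe set ranked between the 99.89th and the 99.94th percentile of its arrays, near the top of the scale, where saturation was not measured here.

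The last gene of the unit, ndhD, codes for a proton-pumping membrane subunit. Its values were 11.96, 12.25 and 11.38 in albino replicates, against 11.44, 11.86 and 11.68 in wild-type replicates. Albino replicate 3 was the lowest of the 6 arrays and albino replicate 2 the highest, so the groups overlapped on both sides. The difference was 0.20 ± 0.22 (95% interval -0.30 to 0.71, adjusted p = 0.652 by limma). Measured within each array, ndhD minus ndhA was 0.67 to 1.01 in albino and 0.06 to 0.40 in wild-type arrays, which do not overlap, a group difference of 0.63 that was not tested. This pair was set side by side with its values known. In the other pairs computed in this unit the groups overlapped. Their group differences were 0.14 (ndhI minus ndhA), -0.06 (ndhG minus ndhE) and 1.11 (ndhH minus ndhA).

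For ndhH, ndhG and ndhE the comparison turned on a single array. ndhH, for a stromal-arm subunit near the site that binds plastoquinone, had values of 8.41, 8.30 and 8.87 in albino replicates, against 5.78, 8.81 and 8.94 in wild-type replicates. Relative to the mean of wild-type replicates 2 and 3, replicate 1 thus stood at -3.10, while the albino arrays lay close to that mean. The difference was 0.68 ± 0.76 (adjusted p = 0.665 by limma) with all arrays, and -0.35 (adjusted p = 0.307) without wild-type replicate 1. ndhG, for a membrane subunit, had 5.74, 5.49 and 5.60 in albino replicates, against 5.07, 6.44 and 6.29 in wild-type replicates. ndhE, for a small membrane subunit, had 7.87, 7.72 and 7.45 in albino replicates, against 7.24, 8.26 and 8.35 in wild-type replicates. In both genes wild-type replicate 1 was the lowest of all 6 arrays, and each albino array lay below wild-type replicates 2 and 3. With all arrays the differences were -0.33 ± 0.33 for ndhG and -0.27 ± 0.28 for ndhE, with limma adjusted p-values of 0.621 and 0.644. Without wild-type replicate 1 both were called lower, ndhG by -0.76 (adjusted p = 0.0195) and ndhE by -0.62 (adjusted p = 0.0486). The ndh genes called lower then numbered 4, against 5.28% of all probe sets. Wild-type replicate 1 is singled out here for its low values in these genes, so leaving it out lowers both differences by construction.

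**Figure D2:**
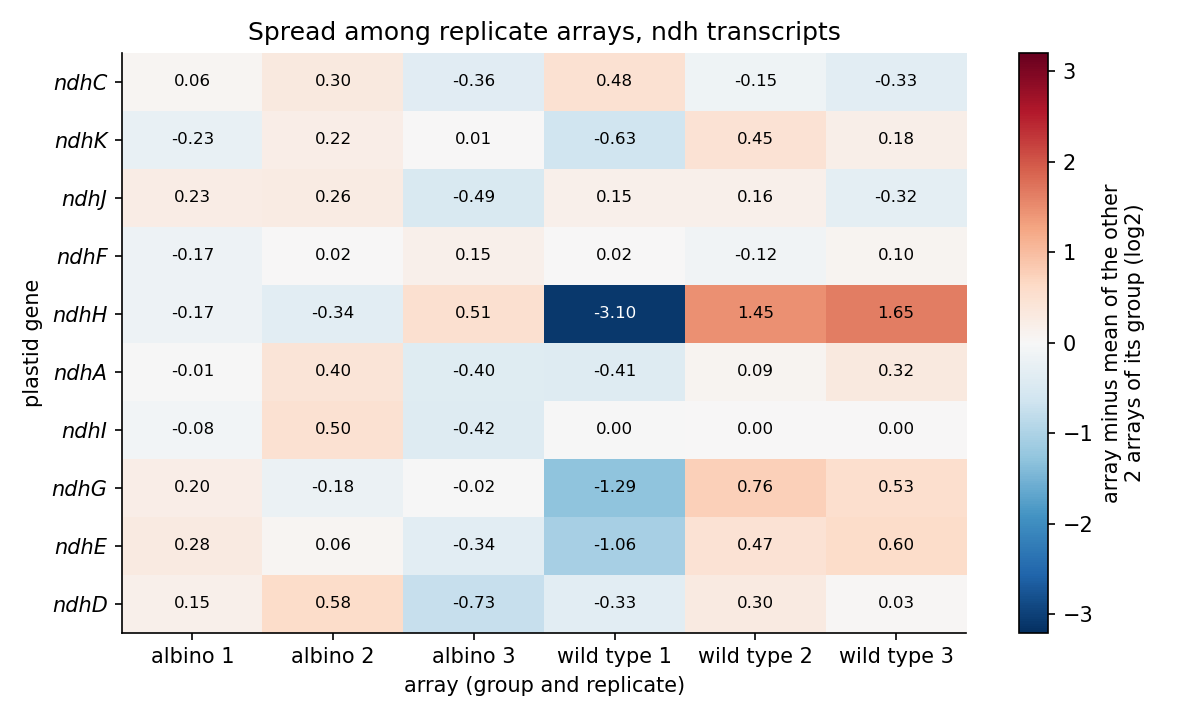
Each cell gives an array's value minus the mean of the other 2 arrays of its group (log2), for the 10 ndh probe sets (rows) in albino and wild-type arrays (columns). Blue is lower and red higher. Wild-type replicate 1 stands at -3.10 for ndhH, -1.29 for ndhG and -1.06 for ndhE.

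The low values of wild-type replicate 1 were not spread over the array. In 3 of the 10 ndh genes and in 7 of the 59 other plastid genes it was lower than the mean of wild-type replicates 2 and 3 by more than 1 (log2), against 0.466% of all probe sets. The 7 were psaA, ycf4, accD, psaC, psbB, rpoB and atpH, with gaps from -3.22 for psaA to -1.13 for atpH. No albino array had such a gap in any ndh gene, and neither did wild-type replicates 2 and 3. Within the ndhH to ndhD unit, the neighbours ndhG, ndhE and psaC shared the low value. Their neighbours ndhI and ndhA did not, with gaps of -0.003 and -0.41, and neither did ndhD, with -0.33. Profiles over the 6 arrays, each centred on its own mean, were most alike in 2 pairs of genes that lie side by side. The root mean square distance was 0.15 between ndhG and ndhE and 0.16 between ndhA and ndhI, the smallest of the 45 pairs. ndhC and ndhI, which lie in different units, came next with 0.18, and the largest distance was 1.75, between ndhJ and ndhH. Other side-by-side pairs were less alike, at 0.33 (ndhK and ndhJ), 0.49 (ndhI and ndhG), 0.85 (ndhC and ndhK) and 1.10 (ndhH and ndhA).

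Averaged by unit, albino and wild-type arrays separated for ndhC-ndhK-ndhJ and overlapped for ndhH to ndhD. The mean of ndhC, ndhK and ndhJ was 8.23 ± 0.18 in albino and 9.62 ± 0.10 in wild-type arrays (SD, n = 3), a difference of -1.39 with no overlap. For the 6 genes from ndhH to ndhD it was 9.60 ± 0.14 in albino and 9.68 ± 0.60 in wild-type arrays, a difference of -0.07. That value has no settled sign: it was -0.42 without wild-type replicate 1 and 0.11 with arrays aligned on reference genes. Within each array the first mean minus the second, of which only the change between groups is read, was -1.40, -1.31 and -1.40 in albino replicates, against 0.63, -0.29 and -0.51 in wild-type replicates. All albino arrays lay below all wild-type arrays, by a mean of -1.32, or -0.97 without wild-type replicate 1. No contrast with ndhF is read, since its probe set lay at the low end of the scale in both groups. No p is given for these means, since each is a score over member genes, which are not replicates. The units are plastid transcription units, and the members and tests were chosen with earlier results known. The first unit's mean rests on ndhJ and ndhK, since ndhC differed by -0.35.

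**Figure D3:**
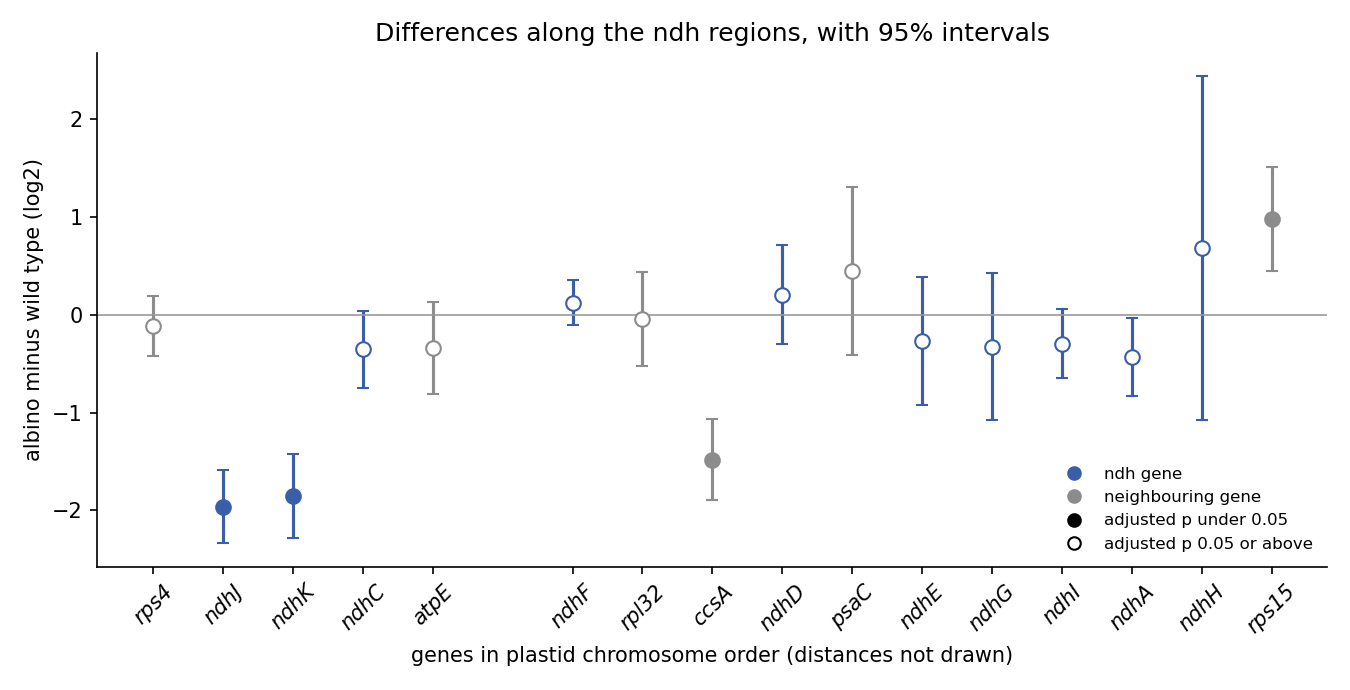
Difference of albino minus wild type (log2, points) with its 95% interval (bars) for ndh genes in blue and measured neighbours in grey, in the order of the plastid chromosome. Filled points passed an adjusted p of 0.05: ndhJ, ndhK and ccsA were lower and rps15 was higher.

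Genes that border the units gave mixed values. psaC, which lies inside the last unit and codes for an iron-sulfur subunit of photosystem I, had 9.73, 9.66 and 9.28 in albino replicates, against 8.15, 9.71 and 9.46 in wild-type replicates. Its difference of 0.45 ± 0.37 (adjusted p = 0.534 by limma) came to -0.03 without wild-type replicate 1. rps15, a ribosomal protein gene next to ndhH, averaged 8.78 ± 0.49 in albino and 7.80 ± 0.18 in wild-type arrays (SD, n = 3). All albino arrays lay above all wild-type arrays, and rps15 rose by 0.98 ± 0.23 (adjusted p = 0.0337 by limma). That call was lost without any one array other than albino replicate 3 (adjusted p = 0.0556 to 0.127). On the other side of ndhD, ccsA, for a protein of cytochrome c maturation, averaged 10.78 ± 0.37 in albino and 12.26 ± 0.11 in wild-type arrays (SD, n = 3). It fell by 1.48 on the log2 scale (adjusted p = 0.00374 by limma). Beside the first unit, atpE, for a subunit of the ATP synthase, stood at the 99.97th percentile or above in every array, where saturation was not measured. Its difference was -0.34 ± 0.20, turned to 0.16 when quantile normalization was applied again, and says little of a change. rps4, for a ribosomal protein, differed by -0.12 ± 0.13. Next to ndhF, rpl32 differed by -0.05 ± 0.21. These 3 did not pass (adjusted p = 0.354 for atpE, 0.671 for rps4 and 0.923 for rpl32 by limma).

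Among the 69 measured plastid genes, ranked from the lowest difference, ndhJ stood at rank 8 and ndhK at rank 9. The other ndh genes lay from rank 30 (ndhA) to rank 62 (ndhH). psbA and rbcL, for a photosystem II core protein and the large subunit of RuBisCO, differed by -3.00 ± 0.21 and -2.38 ± 0.17. rpoC2, for a subunit of the plastid RNA polymerase, differed by 1.33 ± 0.13. Of the other 59 genes, 19 were called lower and 6 higher. With each array aligned on the median of those 59 genes, a scaling that sets the typical plastid transcript level, ndhJ and ndhK remained lower, by -1.27 and -1.17. Relative to that median ndhD (0.89), ndhH (1.37) and ndhI (0.39) were called higher. So was ndhF, whose probe set may read no transcript, so that its call carries nothing beyond the shift of the scaling. By construction the same scaling moved the median of all probe sets from -0.04 to 0.65, and 19378 of the 22746 probe sets were then called higher. The 4 calls among the 10 ndh genes are not above that share. As deposited, the differences of ndhD, ndhH and ndhI were 0.20, 0.68 and -0.29, and that of ndhH was -0.35 without wild-type replicate 1.

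**Figure D4:**
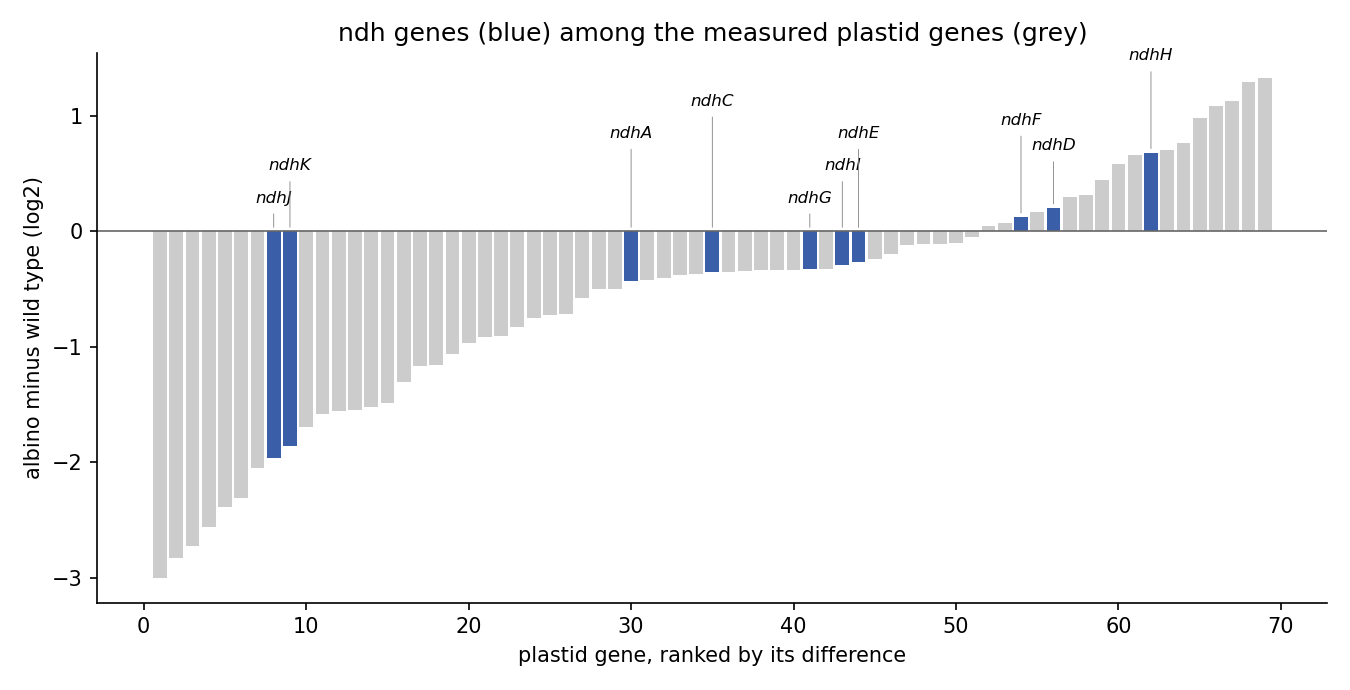
Differences of albino minus wild type (log2, bars from 0) of the 69 measured plastid genes in order of size, ndh genes in blue and others in grey. ndhJ (-1.96) and ndhK (-1.85) stand among the 10 lowest, and the other 8 ndh genes lie between -0.43 and 0.68.

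Nuclear genes were taken from 4 lists of 44 names, of which 12 were measured. The lists covered NDH subunits and linkers, assembly, factors that act on ndh transcripts, and other electron routes around photosystem I with chlororespiration. Of the 12 measured genes, 7 fell and 0 rose, against 7.44% and 3.75% of all probe sets. The lists were chosen with earlier results of these data known, so the count is a description and not a test. All 3 measured leaf markers fell too. All 3 measured genes on the list of 19 subunits and linkers fell, a list that may not hold every subunit gene. NdhL, for a membrane-spanning subunit, had 8.77, 8.80 and 8.71 in albino replicates, against 9.80, 9.82 and 9.65 in wild-type replicates, a difference of -0.996 ± 0.092 (adjusted p = 0.00195 by limma). NdhN, of the stromal arm, averaged 7.96 ± 0.38 in albino and 9.16 ± 0.12 in wild-type arrays (SD, n = 3), a difference of -1.20 (adjusted p = 0.00848 by limma). NdhS, which forms the ferredoxin-binding site, averaged 9.98 ± 0.09 in albino and 10.66 ± 0.11 in wild-type arrays, a difference of -0.69 (adjusted p = 0.00763 by limma). Their arrays did not overlap between groups, and the albino level was lower in each. Of the 2 measured assembly genes, CRR42 fell by 1.05 on the log2 scale (adjusted p = 0.0102 by limma), and CRR41 differed by -0.25 ± 0.14 (adjusted p = 0.330 by limma).

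Of the nuclear genes that act on ndh transcripts, 5 were measured, all for pentatricopeptide repeat proteins that edit single bases of plastid transcripts. Of these 1 fell and 4 did not pass. CRR21, which edits ndhD, had 6.83, 6.41 and 6.52 in albino replicates, against 7.24, 7.21 and 7.33 in wild-type replicates. The groups did not overlap and the difference was -0.67 ± 0.12 (adjusted p = 0.0153 by limma). It no longer passed when wild-type replicate 2 (adjusted p = 0.0599) or replicate 3 (0.0592) was left out. CRR22 (-0.03 ± 0.17), CRR28 (-0.26 ± 0.15) and OTP85 (-0.11 ± 0.11), which also edit ndhD, did not pass. OTP84, which edits ndhF among others, differed by 0.30 ± 0.10 and did not pass either (adjusted p = 0.121 by limma). It was called higher with arrays aligned on the 75th percentile (0.38) or on reference genes (0.47).

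Both measured genes on the list of other electron routes, which also covers chlororespiration, fell. PGRL1B, which takes part in the antimycin-sensitive cyclic flow, averaged 8.16 ± 0.06 in albino and 8.76 ± 0.04 in wild-type arrays (SD, n = 3), a difference of -0.61 (adjusted p = 0.00688 by limma). PIFI, a stromal protein tied to NDH-dependent chlororespiration, averaged 10.75 ± 0.14 in albino and 11.41 ± 0.12 in wild-type arrays, a difference of -0.66 (adjusted p = 0.0116 by limma). With arrays aligned on spiked controls, 3 of the 12 nuclear genes were called, and NdhS (adjusted p = 0.193), CRR21 (0.209), PGRL1B (0.320) and PIFI (0.227) lost their calls with differences as large. With reference genes, CRR21 (0.0630) and PGRL1B (0.0521) lost theirs.

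**Figure D5:**
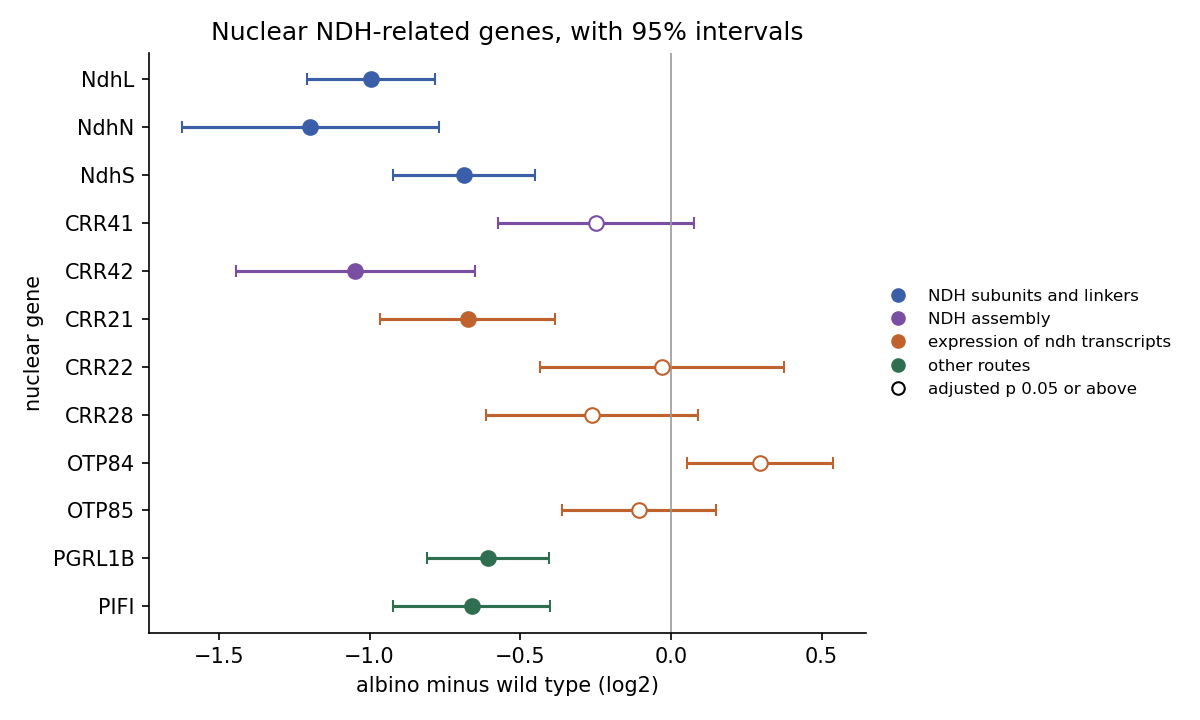
Difference of albino minus wild type (log2, points) with its 95% interval (bars) for the 12 measured nuclear genes, coloured by list (NDH subunits and linkers, assembly, expression of ndh transcripts, other routes). Filled points passed an adjusted p of 0.05, and all 7 of them are lower in albino plants.

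Profiles most like each unit were sought among 13503 other single-gene probe sets, by the root mean square distance of profiles centred on their own mean over the 6 arrays. Nearest to the mean of ndhC, ndhK and ndhJ were AT2G04039 (distance 0.09, difference -1.29), AT5G52070 (0.10, difference -1.37) and psaB (0.13, difference -1.31), a photosystem I core gene of the plastid. AT2G04039 had 7.27, 7.19 and 6.95 in albino replicates, against 8.41, 8.57 and 8.31 in wild-type replicates. AT2G04039 and AT5G52070 are given by locus only and were not on the nuclear lists, which may not hold every NDH subunit gene. Nearest to the ndhH to ndhD mean were AT3G52640 (0.09), AT1G53800 (0.10) and AT2G27900 (0.11). In each of them wild-type replicate 1 was the lowest of the 6 arrays, as in the unit's mean, which follows from how they were chosen. Nearest to ndhF were AT3G58860, AT2G27870 and AT3G45990 (each 0.03), whose profiles are nearly flat.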

How the data were processed

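The deposited values are log2 values, 1 per probe set and array, made by the authors with RMA in the affy package, per the submitters' processing notes; their versions and settings: not given in the sources used here. They were used as deposited. Gene names come from the array annotation, updated through the TAIR10.1 gene table, which served for names and gene order only; of 22746 probe sets apart from 64 array controls, 13513 had a single gene, 503 several, and 8730 were unnamed. Every probe set was fitted in limma 3.58.1 (R 4.3.3) with lmFit and eBayes (two-sided, Benjamini-Hochberg over all 22746), a procedure tested on simulated data. Precision is limited by the number of arrays, with a median SE of 0.118. The members, lists and tests were chosen with earlier results of these data known. Of the listed names, 3 had no locus under that name and were left out. Named are the ndh genes, their measured neighbours and list members, landmark plastid genes, and the 3 nearest profiles per unit. Alternatives were 6 scalings, a filter at the 25th percentile, another variance prior, array weights, a replicate block, dropping shared probe sets, an adjusted p of 0.01, unit medians, and leaving out each array. The labels give no pairing of arrays by replicate number, so the main fit was unpaired.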

Additional observations from a re-analysis of the deposited data

How the results depend on the processing

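The calls of ndhJ and ndhK and the direction of both held in all 18 alternatives. Leaving out 1 array gave 2 to 4 ndh genes called lower, 4 without wild-type replicate 1 and 3 without albino replicate 2, and 0 called higher. No replicate pairing was found: deviations of same-numbered arrays correlated at 0.01, -0.34 and -0.02, and those of differently numbered arrays at -0.27 to 0.35. With 3 arrays per group these values cannot exclude a pairing. With the replicate block 2 ndh genes and 7 nuclear genes were still called lower, ndhJ with a limma adjusted p of 0.00479 and ndhK with 0.00572. Over all probe sets 1693 were called lower and 854 higher (66.5% of calls lower), against 921 and 564 with the block, 1095 and 1301 aligned on the 75th percentile (45.7%), 699 and 1889 on reference genes (27.0%), 476 and 503 on spiked controls (48.6%), 1047 and 1260 after cyclic loess (45.4%), 1297 and 1186 after quantile normalization (52.2%), 211 and 19378 aligned on other plastid genes (1.08%), and 438 and 251 at an adjusted p of 0.01; leaving out 1 array gave 553 to 1424 and 298 to 749. Alignment on reference genes moved the median of all probe sets from -0.04 to 0.14.

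Of the nuclear genes, 3 were lower with spiked controls, 4 at an adjusted p of 0.01 and 1 on other plastid genes; 1 was higher on the 75th percentile, 1 on reference genes and 5 on other plastid genes. The unit difference of ndhC-ndhK-ndhJ was -1.21 on reference genes, -0.70 on other plastid genes and -1.96 with unit medians; against ndhH to ndhD it was -1.84, and against ndhF -2.08, with medians. ndhF was 0.30 on reference genes and 0.81 on other plastid genes, and ndhH to ndhD 0.62 on the latter scaling. The ndhH to ndhD difference of -0.07 also turned to 0.0090 on the 75th percentile, 0.11 on reference genes, 0.064 after cyclic loess and 0.093 after quantile normalization. Leaving out 1 array, the units ran from -1.48 to -1.30, 0.07 to 0.18 and -0.42 to 0.10, and their contrasts from -1.54 to -0.97, -1.60 to -1.37 and -0.01 to 0.55. Values of ndhF and contrasts with it are listed as computed and, as above, are not read.

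Signs turned, among values that had not passed unless named otherwise, as follows. On the 75th percentile CRR22 was 0.052 and rpl32 0.033. On reference genes CRR22 was 0.15, OTP85 0.071, rpl32 0.13, rps4 0.061, AT3G52640 0.084 and AT2G27900 0.059. After cyclic loess CRR22 was 0.040, rpl32 0.10 and rps4 0.070. After quantile normalization ndhI was 0.17, rpl32 0.084, rps4 0.11 and atpE 0.16. With array weights CRR22 was 0.034. On other plastid genes, where 4 ndh genes were called higher, ndhC was 0.33, ndhA 0.26, ndhI 0.39, ndhG 0.36, ndhE 0.42, CRR41 0.44, CRR22 0.66, CRR28 0.43, OTP85 0.58, rpl32 0.64, rps4 0.57, atpE 0.34, AT3G52640 0.59, AT1G53800 0.51 and AT2G27900 0.57, and the genes called lower as deposited NdhS (0.0016), CRR21 (0.014), PGRL1B (0.081) and PIFI (0.026). Leaving out 1 array, ndhH ran from -0.35 to 1.23, psaC from -0.032 to 0.75, rpl32 from -0.27 to 0.12, CRR22 from -0.19 to 0.086, AT3G52640 from -0.37 to 0.043 and AT2G27900 from -0.38 to 0.033. The causes were not tested. Signal over background was not measured, which limits ndhF most.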
